A study of Mus musculus with 9 samples.

Results

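The genes examined are 10 genes of lipid uptake and lipid droplets, Cd36, Mfsd2a, Lpl, Angptl4, Plin2, Plin4, Plin5, Dgat1, Dgat2 and Pnpla2. They were taken by symbol as genes of fatty acid and lysolipid uptake, lipoprotein lipolysis, droplet coats, triglyceride synthesis and triglyceride breakdown, and they are 10 of the 24421 genes listed in the table. All 10 passed the filter on low values and were among the 15583 genes tested. Poly(A) RNA was sequenced from tdTomato-positive cells sorted from the kidney cortex of 9 mice, 3 in each of 3 groups, in a study of what dapagliflozin, an inhibitor of the glucose transporter SGLT2, does to gene expression in the diabetic proximal tubule.

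All 9 mice were C57BL/6 and carried a CreERT2 cassette in the Slc34a1 locus (Slc34a1GCE) and the R26tdTomato reporter, so that Cre was active in the proximal tubule and the reporter was expressed after tamoxifen. Tamoxifen was injected 5 times at 3 mg per mouse in all 3 groups, from 8 weeks of age. *db/m* mice were heterozygous for the Leprdb mutation of the leptin receptor and non-diabetic. *db/db* mice were homozygous for Leprdb, a model of type 2 diabetes, and received vehicle in the drinking water. *db/db*-dapa mice had the same genotype and received dapagliflozin in the drinking water at 1.5 mg/kg/day for 8 weeks. Each library came from 1 mouse. Library totals were 4817670 to 6571539 counts in *db/m*, 2733314 to 7635630 in *db/db* and 6981183 to 9033062 in *db/db*-dapa mice. Levels are given in CPM, counts relative to the scaled library total, and the floor, 3 counts, was 1.02 CPM in the smallest library, *db/db* replicate 1, and 0.339 CPM in the largest.

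Proximal tubular cells burn fatty acids as their main fuel and take them up from blood and filtrate by carriers and scavenger receptors such as CD36. Fatty acids that are not oxidized are joined to glycerol by the DGAT enzymes and stored in lipid droplets, which are coated by perilipins and emptied by lipases beginning with ATGL. Lipid droplets in tubular cells are a known feature of diabetic and obese kidneys.

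The sorted cells carried the marker genes of the proximal tubule. All 12 markers on a list of proximal tubule genes were tested and found in all mice, and Pck1 was the most abundant at a mean of 6220 CPM. The summed level of the list was 19640 to 23100 CPM in *db/m*, 21380 to 27400 CPM in *db/db* and 23540 to 30550 CPM in *db/db*-dapa mice. Of the list, 1 gene, Keg1, was called lower in *db/db* than in *db/m* mice, with a log2 fold change of -1.14, and 0 were called higher. Adipocytes, which express many of the 10 genes strongly, had markers at or near 0. Of 10 adipocyte markers, 6 (Adipoq, Lep, Retn, Cfd, Adrb3 and Cidea) were at 0 in all mice, the most abundant, Nnat, had a mean of 0.725 CPM, and the summed level of the list reached at most 1.77 CPM in any mouse.

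In *db/db* mice, 3 of the 10 genes fell against *db/m* mice and 0 rose. In bulk RNA of this kind, fewer cells of a type and less RNA per cell cannot be told apart. Over all genes tested, 0.699% were called lower and 0.545% higher in this comparison (a log2 fold change beyond 1 either way, with an adjusted p below 0.1). The 3 genes, Mfsd2a, Cd36 and Lpl, all act in bringing lipid into the cell. Their values in the 2 groups did not overlap, which held in this direction for 8.13% of all genes. The other 7 genes overlapped between the groups. The median log2 fold change of the 10 genes was -0.27, beside 0.02 over all genes. In *db/db*-dapa against *db/m* mice, 1 of the 10 genes, Lpl, was called lower and 0 were called higher, beside 0.475% and 0.578% of all genes. Cd36, Mfsd2a, Lpl and Dgat1 lay below *db/m* mice without overlap, 4 of 10, where 13.7% of all genes did. Dgat2 lay above them without overlap, 1 of 10, where 14.4% of all genes did. The median of the 10 genes was -0.18, beside -0.02 over all genes.

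Between the *db/db* groups, *db/db*-dapa against vehicle-treated *db/db* mice, 0 of the 10 genes and 0% of all genes were called, and the lowest adjusted p of any gene was 0.854 (edgeR quasi-likelihood test, Benjamini-Hochberg adjustment). Without adjustment, 2 of the 10 genes, Mfsd2a and Cd36, and 808 of all genes had p under 0.05. DESeq2 called 13 of all genes and 1 of the 10, Mfsd2a, and limma on log2(CPM + 1) called 0, or 445 of all genes and 2 of the 10 with mice weighted by their variance. Only Mfsd2a of the 10 genes was higher in *db/db*-dapa mice without overlap, where 4.9% of all genes were. The median log2 fold change of the 10 genes was 0.13, beside -0.01 over all genes. *db/db* replicate 3 was the highest of the *db/db* mice in Cd36, Mfsd2a and Lpl. Without it, 2 of the 10 genes, Cd36 and Mfsd2a, and 272 of all genes were called between the *db/db* groups. The comparisons with *db/m* mice share the same 3 controls, and a difference between the 3 comparisons was not tested.

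**Figure D1:**
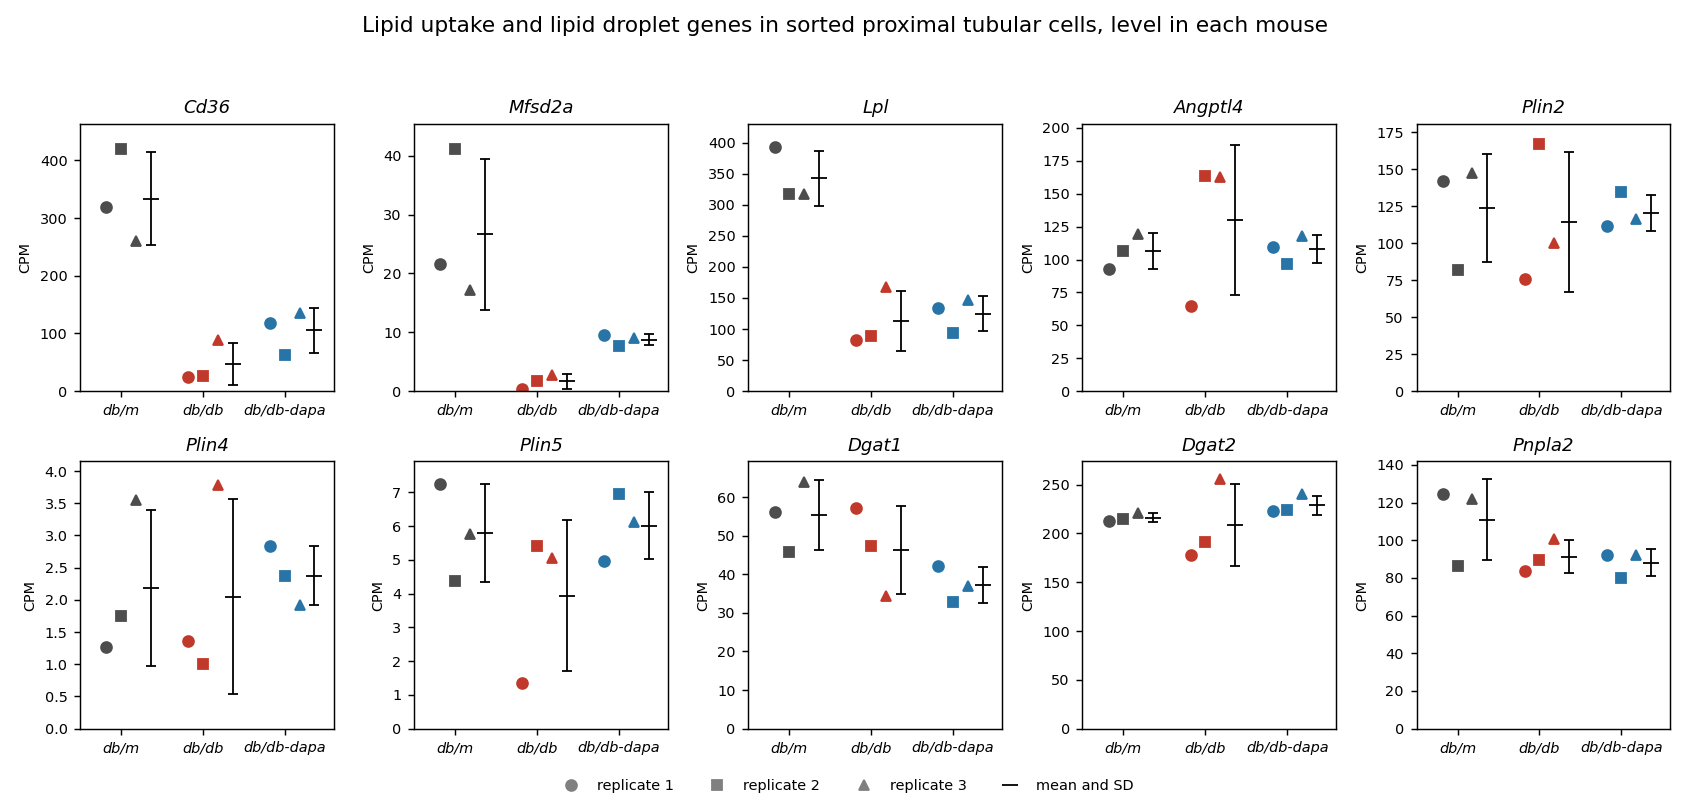
Level in CPM (linear axes from 0) of each of the 10 genes in each mouse, by group, with the replicate number as the symbol and the mean and SD (n = 3) beside the points. Cd36, Mfsd2a and Lpl lie lower in *db/db* than in *db/m* mice without overlap, and the other 7 genes overlap between these groups.

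Per kilobase of the longest transcript, a scale on which genes can be compared, the 10 genes spanned a wide range. In *db/m* mice Cd36 stood highest at 98.1 ± 23.8 CPM per kilobase (SD, n = 3), next to Dgat2 at 95.5 ± 2.06 and Lpl at 83.3 ± 10.7, and neighbours in this order did not differ beyond their spread (1 SD either side of each mean). Plin2 followed at 65.5 ± 19.3, then Pnpla2 at 42.3 ± 8.19, Angptl4 at 32.1 ± 4.09 and Dgat1 at 29.3 ± 4.80 CPM per kilobase, and neighbours down to Dgat1 also lay within their spread. Mfsd2a stood at 12.4 ± 5.95, Plin5 at 2.92 ± 0.726 and Plin4 at 0.380 ± 0.210 CPM per kilobase, each apart from the gene before it. In *db/db* mice Dgat2 stood highest at 92.2 ± 18.5 CPM per kilobase (SD, n = 3), followed by Plin2 at 60.5 ± 25.0 and Angptl4 at 39.4 ± 17.2. Cd36, first in *db/m* mice, stood at 13.6 ± 10.7 in *db/db* mice, below Pnpla2, Lpl and Dgat1, and Mfsd2a at 0.762 ± 0.571 CPM per kilobase lay below Plin5. No neighbours in the order of the *db/db* mice differed beyond their spread. In *db/db*-dapa mice Dgat2 was again first at 101 ± 4.25 CPM per kilobase (SD, n = 3) and Plin2 second at 63.9 ± 6.38. Pnpla2 at 33.6 ± 2.67, Angptl4 at 32.6 ± 3.21, Cd36 at 31.0 ± 11.3 and Lpl at 30.3 ± 6.72 came next and did not differ beyond their spread. Mfsd2a stood at 4.08 ± 0.426 CPM per kilobase in *db/db*-dapa mice, above Plin5 at 3.03 ± 0.503.

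Cd36 encodes a scavenger receptor that carries long-chain fatty acids across the plasma membrane (chromosome 5 of GRCm38, 17781690 to 17888801, minus strand). Cd36 was at 319, 421 and 261 CPM in *db/m* replicates 1 to 3, at 23.8, 26.6 and 88.2 CPM in the *db/db* mice and at 119, 61.8 and 135 CPM in the *db/db*-dapa mice. All 3 *db/m* mice were far above the other 6, and among the *db/db* mice replicate 3 stood out, above the lowest *db/db*-dapa mouse. The level fell 7.09-fold in *db/db* against *db/m* mice, or by a log2 fold change of -2.83 (SE, the standard error, 0.48) with adjusted p = 0.0234 (edgeR quasi-likelihood test, Benjamini-Hochberg adjustment). Leaving out *db/db* replicate 3 gave a log2 fold change of -3.73 (edgeR, adjusted p = 0.000621), and it passed in 22 of 22 alternatives, with adjusted p up to 0.0911. Against *db/m* mice, *db/db*-dapa mice had a log2 fold change of -1.66 (SE 0.46) that missed the threshold, with adjusted p = 0.139 in the same edgeR test. Against *db/db* mice, *db/db*-dapa mice had a log2 fold change of 1.16 (SE 0.46), with an unadjusted p of 0.0275 and adjusted p = 0.854 in the edgeR test. Without *db/db* replicate 3 this value was 2.07 and passed, with adjusted p = 0.0612 in the edgeR test, as it did in weighted limma, 2 of the 22 alternatives, over which the adjusted p reached 1. The value of *db/db*-dapa against *db/m* mice passed in 5 of the 22 alternatives, without the same mouse (edgeR, adjusted p = 0.0121), without a filter, in DESeq2, in weighted limma and in the fit of 2 groups, with adjusted p from 0.00109 to 0.470 over all of them.

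Mfsd2a, a sodium-dependent carrier of lysophosphatidylcholine that brings long-chain omega-3 fatty acids into cells (chromosome 4, 122946850 to 122961188, minus strand), was a gene of middling level in *db/m* mice. It was at 21.6, 41.2 and 17.1 CPM in *db/m* replicates 1 to 3, at 0.340, 1.80 and 2.78 CPM in the *db/db* mice and at 9.51, 7.75 and 9.05 CPM in the *db/db*-dapa mice. The 3 groups formed 3 separate steps, with *db/m* mice highest, *db/db*-dapa mice between and *db/db* mice lowest, and no mouse lay within the range of another group. Of all genes tested, 78 (0.501%) showed steps in this order without overlap. The counts behind the *db/db* values were 1, 9 and 22, so that replicate 1 lay under its floor of 3 counts. Mfsd2a fell in *db/db* against *db/m* mice with a log2 fold change of -3.82 (SE 0.48), or 14.1-fold, and adjusted p = 0.00510 (edgeR quasi-likelihood test, Benjamini-Hochberg adjustment). Leaving out *db/db* replicate 3 gave a log2 fold change of -4.43 (edgeR, adjusted p = 0.00247), and it passed in 22 of 22 alternatives, with adjusted p up to 0.0398. In *db/db*-dapa against *db/m* mice the log2 fold change was -1.60 (SE 0.40) with adjusted p = 0.112 (edgeR), just short of the threshold. It passed in 8 of the 22 alternatives, among them upper-quartile scaling and the newer form of the edgeR test, with adjusted p from 0.00272 to 0.446 over all of them.

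Mfsd2a had the largest difference of the 10 genes between the *db/db* groups. The level was 4.65-fold higher in *db/db*-dapa mice, a log2 fold change of 2.22 (SE 0.48), and higher in 3 of 3 mice than in any *db/db* mouse. The unadjusted p was 0.000638, the seventh smallest of all genes, and the adjusted p was 0.854 in the edgeR quasi-likelihood test, Benjamini-Hochberg adjustment, so that the difference did not pass. The exact permutation test gave p = 0.1, the smallest that 3 against 3 allows (two-sided). It passed without *db/db* replicate 3, at a log2 fold change of 2.84 and adjusted p = 0.0758 (edgeR), in DESeq2 and in limma with mice weighted by their variance, 3 of the 22 alternatives, over which the adjusted p ranged from 0.0141 to 1.

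Lpl encodes lipoprotein lipase, which frees fatty acids from triglyceride-rich lipoproteins at the capillary wall and is secreted by the cells that make it (chromosome 8, 68880491 to 68907448, plus strand). It was at 393, 318 and 317 CPM in *db/m* replicates 1 to 3, at 81.9, 88.8 and 169 CPM in the *db/db* mice and at 133, 94.0 and 147 CPM in the *db/db*-dapa mice. The *db/m* mice stood apart at the top, and the range of the *db/db* mice enclosed that of the *db/db*-dapa mice. Lpl fell 3.02-fold in *db/db* mice, with a log2 change of -1.59 (SE 0.28) with adjusted p = 0.0258, and 2.74-fold in *db/db*-dapa mice, a log2 fold change of -1.46 (SE 0.28) with adjusted p = 0.0558 (edgeR quasi-likelihood test, Benjamini-Hochberg adjustment). Between the *db/db* groups the log2 fold change was 0.14 (SE 0.28). The fall in *db/db* mice no longer passed without *db/m* replicate 1 (edgeR, adjusted p = 0.122) or without *db/db* replicate 2 (adjusted p = 0.104), and over all alternatives the adjusted p was 1.17e-05 to 0.122. In *db/db*-dapa mice it no longer passed without any 1 of the 3 *db/m* mice or without *db/db*-dapa replicate 2 or 3, with adjusted p up to 0.344 in the edgeR test and as low as 0.000136 over all alternatives.

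Angptl4 encodes a secreted inhibitor of lipoprotein lipase that is induced by fasting, fatty acids and PPAR receptors (chromosome 17, 33773750 to 33781830, minus strand). It was at 92.6, 107 and 120 CPM in *db/m* replicates 1 to 3, at 64.6, 164 and 163 CPM in the *db/db* mice and at 109, 96.8 and 118 CPM in the *db/db*-dapa mice. *db/db* replicate 1 was the lowest of all mice while the other two *db/db* mice were the highest, so that the *db/db* group enclosed both others. Its log2 fold change was 0.30 (SE 0.29) in *db/db* against *db/m* mice and -0.28 (SE 0.29) between the *db/db* groups, both about the size of their SE. With 1 mouse left out these values ranged from 0.11 to 0.62 and from -0.60 to -0.08. Angptl4 passed the test in 0 of the 3 comparisons.

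The droplet coat genes did not pass in any comparison. Plin2, whose protein coats droplets in most cell types and follows the amount of stored lipid, lies on chromosome 4 (86648386 to 86670060, minus strand). It was at 142, 81.7 and 147 CPM in *db/m* replicates 1 to 3, at 75.5, 167 and 100 CPM in the *db/db* mice and at 111, 134 and 116 CPM in the *db/db*-dapa mice. The 3 groups overlapped, and both the lowest and the highest level belonged to a *db/db* mouse. The means were 124 ± 36.5, 114 ± 47.3 and 121 ± 12.1 CPM (SD, n = 3 each), and the log2 fold change of *db/db* against *db/m* mice was -0.11 (SE 0.29).

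Plin5, which tethers droplets to mitochondria in cells that oxidize fat, and Plin4, a coat protein known best from adipocytes, are neighbours on chromosome 17 (56111601 to 56117596 and 56100591 to 56109803, both minus strand). Plin5 was at 7.24, 4.36 and 5.77 CPM in *db/m* replicates 1 to 3, at 1.36, 5.40 and 5.05 CPM in the *db/db* mice and at 4.97, 6.96 and 6.11 CPM in the *db/db*-dapa mice. *db/db* replicate 1, with 4 counts, stood alone below the rest, and the other 8 mice overlapped. Its log2 fold change was -0.49 (SE 0.42) in *db/db* against *db/m* mice and 0.54 (SE 0.42) between the *db/db* groups, and without *db/db* replicate 1 these values were -0.15 and 0.20. Plin4 stayed between 1.0 and 3.79 CPM in all mice, with counts from 4 to 30, and the highest and the lowest level were both in *db/db* mice. It overlaps Hdgfl2 on the opposite strand by 17 bases, and its log2 fold changes, 0.02 to 0.14 in the 3 comparisons, were smaller than their SE, 0.56 to 0.57.

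Dgat1 and Dgat2 encode the unrelated enzymes that add the last fatty acid to make triglyceride, Dgat1 mostly from fatty acids taken up or recycled and Dgat2 mostly from newly made ones. Dgat2 (chromosome 7, 99153658 to 99182719, minus strand) was at 213, 214 and 221 CPM in *db/m* replicates 1 to 3, at 178, 192 and 256 CPM in the *db/db* mice and at 223, 224 and 240 CPM in the *db/db*-dapa mice. The *db/m* mice were close together and each lay below each *db/db*-dapa mouse, but by little, and the *db/db* mice spread around both. The log2 fold change of *db/db*-dapa against *db/m* mice was 0.08 (SE 0.17). Dgat1 (chromosome 15, 76502015 to 76511953, minus strand) was at 56.1, 45.9 and 64.0 CPM in *db/m* replicates 1 to 3, at 57.1, 47.4 and 34.4 CPM in the *db/db* mice and at 42.0, 32.8 and 37.0 CPM in the *db/db*-dapa mice. All *db/db*-dapa mice lay below all *db/m* mice, and the *db/db* mice reached across both. The log2 fold change of *db/db*-dapa against *db/m* mice was -0.57 (SE 0.21), with an unadjusted p of 0.0209 and adjusted p = 0.220 (edgeR quasi-likelihood test, Benjamini-Hochberg adjustment), so that it did not pass.

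Pnpla2 encodes ATGL, the lipase that starts the breakdown of stored triglyceride (chromosome 7, 141455198 to 141460743, plus strand). It was at 125, 86.2 and 122 CPM in *db/m* replicates 1 to 3, at 83.6, 89.4 and 101 CPM in the *db/db* mice and at 92.3, 80.1 and 92.2 CPM in the *db/db*-dapa mice. *db/m* replicates 1 and 3 were the highest of all mice, and *db/m* replicate 2 lay within the range of the other groups. Its log2 fold change was -0.28 (SE 0.18) in *db/db* and -0.33 (SE 0.18) in *db/db*-dapa against *db/m* mice, and adjusted p was 0.540 and 0.338 (edgeR quasi-likelihood test, Benjamini-Hochberg adjustment).

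**Figure D2:**
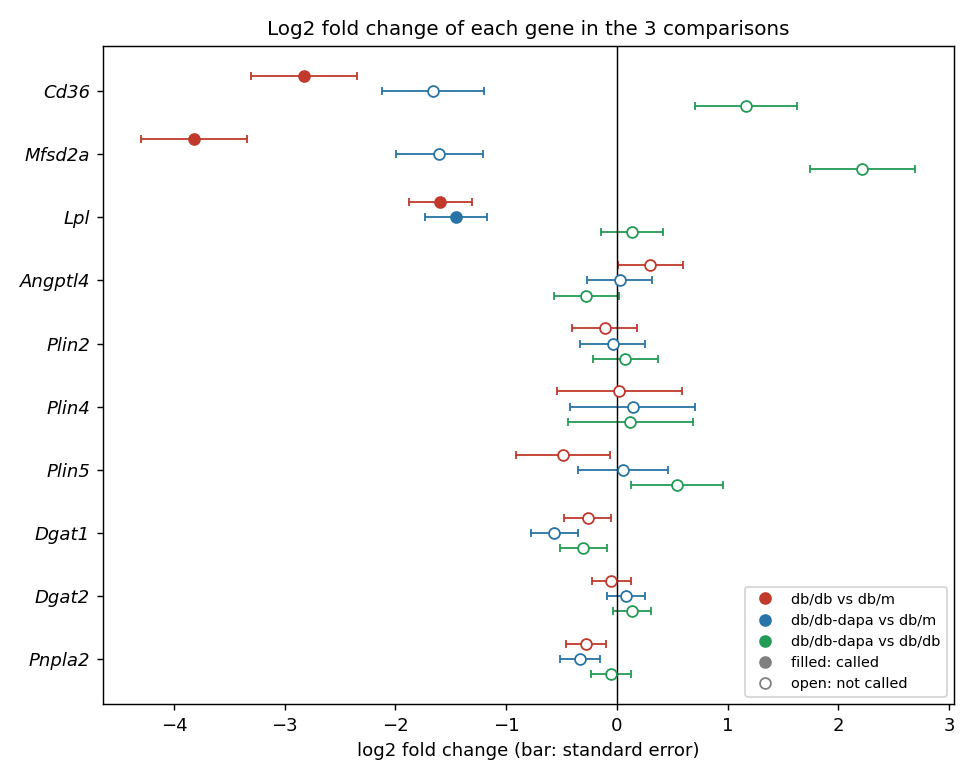
Log2 fold change of each of the 10 genes with its SE in the 3 comparisons, with filled points for genes that passed the test. Filled points are those of Cd36, Mfsd2a and Lpl in *db/db* and of Lpl in *db/db*-dapa against *db/m* mice.

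The summed level of 8 markers of the S3 segment, the straight part of the proximal tubule, was 1780, 1919 and 1621 CPM in *db/m* replicates 1 to 3, 313, 459 and 1349 CPM in the *db/db* mice and 968, 1015 and 1391 CPM in the *db/db*-dapa mice. In this sum, to which Atp11a and Slc7a13 gave much, the *db/m* mice were highest, as for Cd36, and *db/db* replicate 3 lay among the *db/db*-dapa mice. All 8 markers were tested, 0 of them were at 0 in all mice, and Atp11a was the most abundant at a mean of 530 CPM. Called lower in *db/db* than in *db/m* mice were 2, Acsm3 with a log2 fold change of -2.68 and Slc22a7, and Slc22a7 was also called lower in *db/db*-dapa mice. Slc22a7 was at 73.5, 48.3 and 42.9 CPM in *db/m* replicates 1 to 3 and had at most 4 counts in any of the 6 other mice. Slc7a13 was at 484, 376 and 310 CPM in *db/m* replicates 1 to 3, at 9.52, 7.40 and 100 CPM in the *db/db* mice and at 84.7, 35.1 and 125 CPM in the *db/db*-dapa mice. In *db/db* against *db/m* mice, 4 of the 8 markers (Slc7a13, Slc22a7, Atp11a and Acsm3) were lower without overlap, where 8.13% of all genes were. The other 4 (Slc5a1, Cyp7b1, Slco1a6 and Slc22a13) overlapped, and the median log2 fold change was -1.40. In *db/db*-dapa against *db/m* mice the median was -1.13. Slc7a13, Slc22a7, Atp11a and Acsm3 were again lower without overlap, where 13.7% of all genes were. Slc5a1 was higher without overlap, with a log2 fold change of 0.94, where 14.4% of all genes were. The part of the S3 markers in the levels of Cd36, Mfsd2a and Lpl was not tested.

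Endothelial cells and macrophages can express Cd36 and Lpl as well. The 10 endothelial markers, all tested and with Eng most abundant at a mean of 35.6 CPM, summed to 83.6, 92.7 and 209 CPM in *db/m* replicates 1 to 3, to 246, 301 and 101 CPM in the *db/db* mice and to 318, 82.4 and 65.6 CPM in the *db/db*-dapa mice. The 12 macrophage markers, all tested and with Cd74 most abundant at a mean of 215 CPM, summed to 514, 393 and 227 CPM in *db/m* replicates 1 to 3, to 399, 366 and 137 CPM in the *db/db* mice and to 340, 179 and 104 CPM in the *db/db*-dapa mice. These sums overlapped between the groups, and 0 markers of either list were called in any comparison. In *db/db* and *db/db*-dapa against *db/m* mice and between the *db/db* groups, the median log2 fold changes were 0.70, 0.36 and -0.43 for the endothelial markers. For the macrophage markers they were 0.45, -0.71 and -0.78. By edgeR, 0 endothelial markers had an unadjusted p under 0.05 in any comparison. Of the macrophage markers 2, 1 and 2 did, and of all 15583 genes 2142, 2829 and 808. The part of these cells in the levels of Cd36 and Lpl was not tested. The 10 fibroblast and muscle markers, all tested and with Acta2 most abundant at a mean of 10.02 CPM, summed to 56.2, 47.6 and 59.7 CPM in *db/m* replicates 1 to 3, to 46.6, 41.8 and 17.6 CPM in the *db/db* mice and to 47.3, 18.9 and 12.1 CPM in the *db/db*-dapa mice. All *db/m* mice were above the other 6, by little over some. The 13 distal nephron markers, all tested and with Umod most abundant at a mean of 522 CPM, summed to 1731, 1299 and 3253 CPM in *db/m* replicates 1 to 3, to 2182, 1102 and 1129 CPM in the *db/db* mice and to 1151, 921 and 1042 CPM in the *db/db*-dapa mice. All *db/db*-dapa mice lay below all *db/m* mice, and the *db/db* mice overlapped both. The median log2 fold change of *db/db* and of *db/db*-dapa against *db/m* mice was -0.51 and -0.74 for the fibroblast and muscle markers and -0.31 and -1.20 for the distal markers. By edgeR 0 of them were called, with an unadjusted p under 0.05 for 1 and 3 of the fibroblast and muscle markers and for 2 and 8 of the distal markers. Of all 15583 genes tested, 2142 and 2829 had an unadjusted p under 0.05 in the same comparisons by edgeR. Against *db/m* mice both lists had medians below 0 in both *db/db* groups, and these medians were lowest in *db/db*-dapa mice. The distal sum of *db/db* replicate 1 lay above those of *db/m* replicates 1 and 2. The part of these cells in the levels of Cd36, Mfsd2a and Lpl was not tested. Of the other lists, lymphocyte markers summed to 3.85 to 24.8 CPM over the mice, podocyte markers to 19.7 to 272, red blood cell markers to 29.6 to 1462, injury markers to 903 to 2138 and dissociation genes to 4330 to 9598 CPM. Of these lists, 1 gene was called, Dnajb1 among the dissociation genes, with a log2 fold change of -1.20 in *db/db* against *db/m* mice.

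Genes with the pattern most like that of the called genes were sought by Pearson's r of log2(CPM + 1) over the 9 mice, among 10515 tested genes with a mean of at least 5 CPM. These r values take in the differences between the groups and are a description. Nearest to Cd36 were Slc7a13 (r = 0.983), Ldhd (r = 0.979) and Galns (r = 0.975). Nearest to Mfsd2a were Cmas (r = 0.986), Me1 (r = 0.970) and Keg1 (r = 0.969). Among those nearest to Lpl were Akr1c14 (r = 0.981) and Bdh1 (r = 0.978). Keg1, for example, was at 2162 ± 209 CPM in *db/m*, 979 ± 96.7 CPM in *db/db* and 1409 ± 54.6 CPM (SD, n = 3) in *db/db*-dapa mice, the order seen for Mfsd2a.

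Since Cd36 and Mfsd2a moved in the same direction, the 250 bases before their starts are shown, from RefSeq on GRCm38.p6, with the nuclear receptor motif AGGTCA, searched on both strands, in capitals. The motif is shared by the sites of many nuclear receptors, and on the opposite strand it reads TGACCT. Of the 10 genes, 6 had a promoter in the RefSeq table used, Cd36, Mfsd2a, Plin2, Plin4, Plin5 and Pnpla2. The Cd36 window is chr5:17835897-17836146, minus strand, which lies within the span of the gene in GENCODE, between exons, since some of its transcripts start further upstream. The Mfsd2a window is chr4:122961189-122961438, minus strand, and 110 of its 250 bases overlap an exon of 4933421A08Rik on the other strand.
Cd36: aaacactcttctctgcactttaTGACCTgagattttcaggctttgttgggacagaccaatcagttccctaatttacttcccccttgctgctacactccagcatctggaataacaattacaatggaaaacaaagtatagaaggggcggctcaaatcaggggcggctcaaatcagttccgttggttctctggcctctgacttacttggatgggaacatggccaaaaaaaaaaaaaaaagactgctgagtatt
Mfsd2a: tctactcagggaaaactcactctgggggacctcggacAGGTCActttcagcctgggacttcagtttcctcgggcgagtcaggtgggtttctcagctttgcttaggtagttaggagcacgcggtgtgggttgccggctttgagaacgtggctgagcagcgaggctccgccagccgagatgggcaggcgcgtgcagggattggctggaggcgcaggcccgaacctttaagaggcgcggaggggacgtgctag
The motif lies 228 to 223 bases before the start in Cd36, on the strand opposite to the one printed, and 213 to 208 bases before it in Mfsd2a, on the strand printed. It was also present in the windows of Plin2 and, at 1 of its 2 listed starts, Plin5, genes that did not pass in any comparison, and in 14.0% of all 32851 promoters of this length. Other motifs searched on both strands had 0 matches in the windows of the 6 genes. They were a direct repeat of AGGTCA with 1 base of any kind between the copies, the form bound by PPAR, in 0.0335% of all promoters, TATAAA, the TATA box, in 12.4%, and TGTTCT, of the glucocorticoid receptor, in 16.1%.

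Other genes of lipid handling were followed in 7 lists with 119 tested genes of 130 listed. In *db/db* against *db/m* mice 1 of the 119 rose and 2 fell, beside 0.545% and 0.699% of all genes. In *db/db*-dapa against *db/m* mice 3 rose and 1 fell, beside 0.578% and 0.475% of all genes. Of the 119, 0 passed between the *db/db* groups, beside 0% of all genes. The median log2 fold changes in these comparisons were 0.08, 0.22 and 0.16, beside 0.02, -0.02 and -0.01 over all genes. The highest and lowest values named for a list are those among its genes with a mean of at least 5 CPM.

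Of 16 tested genes for fatty acid uptake, binding and activation, 0 passed in any comparison. The most abundant, Slc27a2, a fatty acid transport protein and very long-chain acyl-CoA synthetase of the proximal tubule, was at 4083 ± 790 CPM in *db/m*, 2470 ± 1030 CPM in *db/db* and 3115 ± 467 CPM (SD, n = 3) in *db/db*-dapa mice, values that overlapped. The largest value between the *db/db* groups was that of Acsl3, an acyl-CoA synthetase of nascent droplets, at 15.6, 17.6 and 19.5 CPM in the *db/db* and 27.4, 39.4 and 33.7 CPM in the *db/db*-dapa mice. Its groups did not overlap, with a log2 fold change of 0.92 (SE 0.19) that did not pass, except in 2 of the 22 alternatives, weighted limma and without *db/db* replicate 3 (edgeR, adjusted p = 0.0817, and from 0.0531 to 1 over all of them). Fabp4, a fatty acid binding protein of adipocytes, macrophages and capillaries, had the lowest, -1.81 (SE 0.94). Leaving out *db/db* replicate 2 gave -0.86 and leaving out *db/db*-dapa replicate 1 gave -3.40, and it passed in 1 of the 22 alternatives, weighted limma (adjusted p = 0.0885, and up to 1 over all of them). The list of lipoprotein lipases, cofactors and receptors had 14 tested genes. Vldlr, the most abundant of this list, and Apoc3, with the lowest value between the *db/db* groups (log2 fold change -0.60, SE 0.31), did not pass in any comparison.

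Among 14 tested genes of droplet coats and droplet formation, Hsd17b11 fell in both *db/db* groups. It encodes a steroid and retinol dehydrogenase that sits on lipid droplets, and it was the most abundant of this list. Hsd17b11 was at 513, 590 and 494 CPM in *db/m*, at 118, 106 and 140 CPM in *db/db* and at 163, 131 and 127 CPM in *db/db*-dapa mice, replicates 1 to 3. The *db/m* mice stood apart at the top, and the 6 other mice overlapped. The fall was 4.38-fold in *db/db* and 3.80-fold in *db/db*-dapa mice, log2 fold changes of -2.13 (SE 0.19) and -1.92 (SE 0.18), with adjusted p = 0.000703 and 0.000921 (edgeR quasi-likelihood test, Benjamini-Hochberg adjustment). It passed in 22 of 22 alternatives in each comparison. Plin1, Cidea, Cidec, Hsd17b13 and Pnpla5, droplet genes of fat, liver and skin among others, did not reach the filter on low values. Fitm2 and Bscl2, with the highest and the lowest value between the *db/db* groups, had log2 fold changes of 0.43 (SE 0.42) and -0.02 (SE 0.18). That of Fitm2 changed to 0.07 on leaving out *db/db* replicate 2 and to 1.21 on leaving out *db/db* replicate 3, and it passed in 1 of the 22 alternatives, weighted limma (adjusted p = 0.0993, and up to 1 over all of them).

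Of 18 tested genes for triglyceride and sterol ester synthesis, 0 passed in any comparison. Mogat1, a monoacylglycerol acyltransferase, was at 126, 110 and 156 CPM in *db/m*, at 13.6, 97.0 and 83.0 CPM in *db/db* and at 126, 98.6 and 132 CPM in *db/db*-dapa mice, replicates 1 to 3. *db/db* replicate 1 stood far below all other mice, and the log2 fold change between the *db/db* groups, 0.86 (SE 0.48), was the highest of the list. With 1 mouse left out this value ranged from 0.40 to 1.26, and it passed in 0 of the 22 alternatives. Agpat5 had the lowest value of the list, -0.25 (SE 0.20), and Gpd1, which makes glycerol 3-phosphate, was the most abundant.

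Of 10 tested genes for triglyceride and sterol ester breakdown, 1 fell in *db/db* against *db/m* mice. This was Ces1f, a carboxylesterase that hydrolyses triglyceride, one of a cluster of similar genes among which reads may be divided. Ces1f was at 1034, 895 and 1207 CPM in *db/m*, at 337, 346 and 464 CPM in *db/db* and at 762, 556 and 689 CPM in *db/db*-dapa mice, replicates 1 to 3. The 3 groups did not overlap and stood in the same order as those of Mfsd2a. The log2 fold change of *db/db* against *db/m* mice was -1.45 (SE 0.21) with adjusted p = 0.0105, and that of *db/db*-dapa against *db/db* mice was 0.81 (SE 0.20) with adjusted p = 0.854 (edgeR quasi-likelihood test, Benjamini-Hochberg adjustment). Aadac, with the lowest value of the list in the latter comparison, had -0.07 (SE 0.17).

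**Figure D3:**
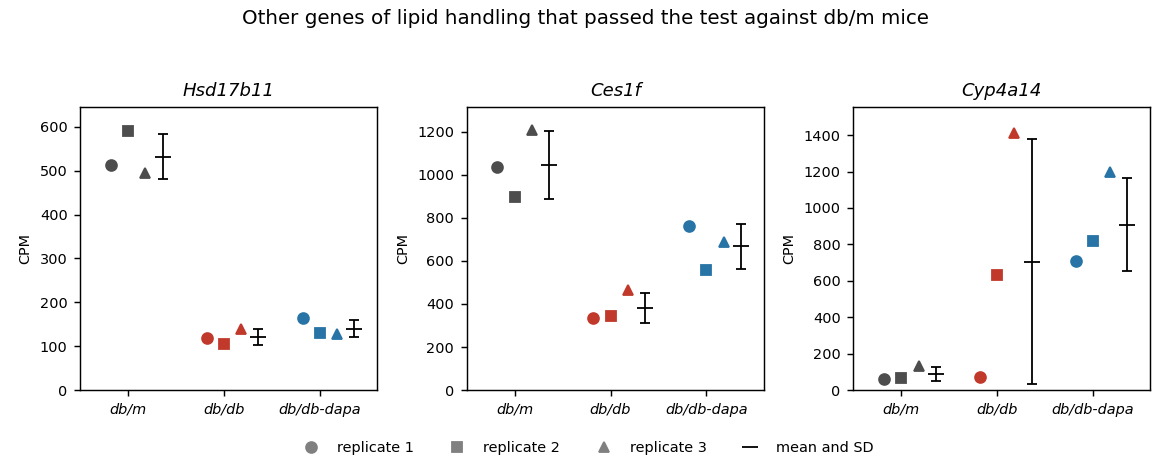
Level in CPM (linear axes from 0) in each mouse of 3 genes of the other lists that passed the test against *db/m* mice, with the mean and SD (n = 3) beside the points. Hsd17b11 and Ces1f lie highest in *db/m* mice, and Cyp4a14 is low in *db/m* mice and in *db/db* replicate 1.

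The receptor PPAR alpha drives many genes of fatty acid use, Cd36, Lpl, Angptl4, Plin2, Plin5 and Pnpla2 among them in some tissues. Of 20 tested regulators of lipid use, 0 passed both thresholds in any comparison. Srebf1, which encodes a sterol-regulated activator of lipid synthesis, was at 35.9, 31.8 and 39.3 CPM in *db/m*, at 40.8, 31.2 and 47.6 CPM in *db/db* and at 58.6, 76.1 and 72.6 CPM in *db/db*-dapa mice, replicates 1 to 3. Each *db/db*-dapa mouse was above all other mice. Against *db/m* mice its log2 fold change of 0.96 (SE 0.19) had adjusted p = 0.0627 (edgeR quasi-likelihood test, Benjamini-Hochberg adjustment) but missed the threshold on size, and against *db/db* mice it was 0.79 (SE 0.19), which passed in 1 of the 22 alternatives, weighted limma. Mlxipl, the most abundant regulator, had the lowest value between the *db/db* groups, -0.36 (SE 0.20).

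Of 27 tested targets of PPAR alpha outside the 10 genes, 0 fell in any comparison. Cyp4a14, a fatty acid hydroxylase with close copies in the genome among which reads may be divided, was at 63.2, 67.0 and 131 CPM in *db/m*, at 70.0, 633 and 1411 CPM in *db/db* and at 711, 816 and 1198 CPM in *db/db*-dapa mice, replicates 1 to 3, so that *db/db* replicate 1 lay among the *db/m* mice. It rose in *db/db*-dapa against *db/m* mice, with a log2 fold change of 3.39 (SE 0.77) and adjusted p = 0.0924 (edgeR quasi-likelihood test, Benjamini-Hochberg adjustment). The call was lost in limma without weights and without any 1 of the *db/m* mice, without *db/db* replicate 2, or without *db/db*-dapa replicate 2 or 3 (adjusted p up to 0.336). Between the *db/db* groups, the median of the 27 targets was 0.32, with 23 above and 4 below 0, beside a median of -0.01 with 7595 above and 7973 below 0 over all genes. Of the 27, 0 were called by edgeR and 1 had an unadjusted p under 0.05. Cyp4a12a had the highest value, 0.87 (SE 0.28), which passed in 2 of the 22 alternatives, weighted limma and without *db/db* replicate 3, and Pdk4 the lowest, -0.71 (SE 0.62), which turned to 0.81 without *db/db* replicate 2.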

How the data were processed

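Poly(A) RNA of sorted tdTomato-positive cells was sequenced as stranded libraries in single-end mode. Per the submitters' processing notes and the paper, reads were mapped to mm10 with TopHat2 2.0.13, Bowtie2 2.2.3 and SAMtools 0.1.19, and FPKM was calculated with Cufflinks 2.2.1. The deposited table is named as FPKM but holds estimated counts per gene: 85.9% of its values above 0 are whole numbers (as written, with no tolerance) and the sums differ between mice. The sources used here do not say with which tool the authors estimated the counts or if reads were counted by strand.

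Estimated counts were rounded to whole numbers. Of 24421 genes, 15583 reached 0.3 CPM in at least 2 of the 9 mice and entered the quasi-likelihood test in edgeR 4.0.16 (earlier form, TMM scaling, R 4.3.3) on all 9 mice without covariates. P-values were adjusted over all genes by the Benjamini-Hochberg method, and called genes had a log2 fold change beyond 1 either way and an adjusted p below 0.1. Standard errors were derived from the F value. Exact permutation tests were two-sided. Floors of 3 counts cover counting error only. Groups and replicate numbers follow the labels, and p-values measure the spread between mice.

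The 10 genes and all lists were chosen with earlier results of these data known. Of the 7 other lists, the genes named are those called in any comparison and, per list, the most abundant and those highest and lowest between the *db/db* groups at a mean of at least 5 CPM. For each called member, genes among the 3 with the highest r are named. Some genes that these rules pick are not named, though they are in the counts. Srebf1's threshold on size and Slc7a13 were singled out after their values were seen. Angptl8 and Gk are listed under older symbols.

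GENCODE gave coordinates and transcript lengths on GRCm38, and RefSeq gave promoters. The outcome of a check of the tests on simulated data is not given, and no result here rests on it. Alternatives were other scalings and filters, DESeq2 1.42.0, limma 3.58.1 on log2(CPM + 1) or log2(CPM + 0.1), with and without weights, fits of 2 groups, a replicate block and leaving out each mouse. The newer form of the edgeR test and another rounding were added after seeing the data.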

Additional observations from a re-analysis of the deposited data

How the results depend on the processing

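Limits lie in 3 mice per group, in 9 mice without technical replicates and in depth: *db/db* replicate 1 had the fewest counts, and Plin4, Plin5 and Mfsd2a rested on few counts there. Of 22 alternatives, 9 left out 1 mouse and 2, the newer form of the edgeR test and the other rounding, were chosen after seeing the data. Cd36 and Mfsd2a passed in *db/db* against *db/m* mice in all 22.

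In *db/db* against *db/m* mice, 194 genes, 3 of the 10 genes and 3 of the other lists were called. DESeq2 called 363 genes and 7 of the lists, weighted limma 318 and 8, and the fit of 2 groups 114 genes. Total count scaling and no filter each called 6 of the lists. Total count scaling moved the median of all genes from 0.02 to 0.13 and the share of called genes that were higher from 43.8% to 60.3%. With 1 mouse left out the counts were 84 to 230, 2 to 3 and 2 to 8, with 84 genes without *db/m* replicate 1.

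In *db/db*-dapa against *db/m* mice, 164 genes, 1 of the 10 and 4 of the lists were called. These counts were 507, 3 and 10 in DESeq2, 929, 3 and 16 in weighted limma, and 626, 3 and 14 in the fit of 2 groups. Without a filter 275 genes and 3 of the 10 were called, and upper-quartile scaling and the newer edgeR form each called 2 of the 10. With 1 mouse left out they were 14 to 662, 0 to 3 and 1 to 15, with 14 genes without *db/db*-dapa replicate 2 and 662 without *db/db* replicate 3.

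Between the *db/db* groups, 0 were called by edgeR, with 808 genes at an unadjusted p under 0.05. DESeq2 called 13 genes and 1 of the 10, weighted limma 445 genes, 2 of the 10 and 10 of the lists, and limma without weights 0. With 1 mouse left out the counts were 0 to 272, 0 to 2 and 0 to 4, with 272 without *db/db* replicate 3.

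With the replicate number as a block, as if same-number mice were a pairing, 185, 167 and 0 genes, 3, 1 and 0 of the 10 and 4, 5 and 0 of the lists were called. Over all genes tested, r was taken between mice of different groups on deviations of log2(CPM + 1) from the group means. Of 9 same-number pairs, 3 had r over 0.1 (range -0.3233 to 0.5631). Pairs with different numbers had r from -0.6104 to 0.3594. Deviations from a mean of 3 mice depend on each other, so these values cannot settle if the numbers pair mice.

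In *db/db* against *db/m* mice, log2 fold changes that crossed 0 were, for Plin2, -0.49 to 0.11 with 1 mouse left out, for Plin4, -0.0022 with upper-quartile scaling, -0.0002 with DESeq2, -0.11 with limma on log2(CPM + 1), -0.18 with limma on log2(CPM + 0.1), -0.071 with weighted limma, -0.083 with the replicate block, -0.014 with the other rounding and -0.89 to 0.53 with 1 mouse left out, for Dgat2, 0.058 with total count scaling and -0.23 to 0.052 with 1 mouse left out. In *db/db*-dapa against *db/m* mice, log2 fold changes that crossed 0 were, for Angptl4, -0.033 with upper-quartile scaling and -0.069 to 0.11 with 1 mouse left out, for Plin2, 0.015 with total count scaling, 0.0064 with limma on log2(CPM + 1), 0.0068 with limma on log2(CPM + 0.1), 0.035 with weighted limma and -0.27 to 0.10 with 1 mouse left out, for Plin4, -0.15 to 0.65 with 1 mouse left out, for Plin5, -0.0037 with upper-quartile scaling and -0.12 to 0.25 with 1 mouse left out. Between the *db/db* groups, log2 fold changes that crossed 0 were, for Lpl, -0.047 to 0.56 with 1 mouse left out, for Plin2, -0.15 to 0.45 with 1 mouse left out, for Plin4, -0.21 to 1.04 with 1 mouse left out, for Pnpla2, -0.11 to 0.041 with 1 mouse left out, for Vldlr, -0.049 to 0.54 with 1 mouse left out, for Bscl2, -0.15 to 0.084 with 1 mouse left out, for Aadac, -0.18 to 0.0305 with 1 mouse left out, for Pdk4, -1.16 to 0.81 with 1 mouse left out. The cause was not tested for any of these changes.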
